A study of Mus musculus with 4 samples.

Results

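ERVK families are the mouse endogenous retroviruses of class II, each a set of related genomic copies that the repeat annotation names and counts together. The members were the rows of the counts table whose annotation ends in ERVK of the LTR class, which gave 283 of 1562 repeat families in a table of 56404 genes and repeat families. They were grouped by the start of the name into IAP (25 families), ERVB (21), RLTR (146), MMERVK (5), ETn (3) and names with another start (83), and by part into 45 internal parts (name ending in -int) and 238 long terminal repeats (LTRs). The libraries, made from total RNA after removal of ribosomal RNA, came from untreated mouse embryonic fibroblasts (MEF cells), with 2 from wild-type (wt) cells and 2 from Top2β-null cells. The Top2β-null MEF cells were derived from Top2β-null mice and came to the study from other laboratories, while its wt MEF cells have another source, so that the loss of Top2β and the origin of the cells cannot be told apart in this comparison. The labels do not say whether the 2 libraries of a genotype came from separate cultures, and p-values then measure only the spread between these libraries, which may be technical. In bulk RNA, fewer cells that transcribe a family and less RNA per cell cannot be told apart.

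An intact endogenous retrovirus has a central coding region with gag, pro and pol genes between a pair of LTRs, which hold the promoter and the polyadenylation signal. In the annotation the internal part and the LTR carry separate names, and an LTR that lost its internal part by recombination stands alone in the genome as a solo LTR. The ERVK group holds elements that still move in the mouse, such as the intracisternal A particles (IAP) and the ETn/MusD elements. In most somatic cells these copies are kept silent by DNA methylation and by H3K9me3, which SETDB1 deposits where TRIM28 and KRAB zinc finger proteins bind. Because TEtranscripts assigns reads to families and the mode in which it was run is not given in the sources used here, reads of related families may be shared among them, and neighbours in name are not independent of each other.

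The libraries held 133116830 to 149647278 counts, of which 19.3% to 21.4% lay on repeat families. Normalized counts are counts scaled by TMM factors over genes and repeats together. Top2b was at 18259 and 18465 normalized counts in wt against 3879 and 3789 in Top2β-null libraries, a log2 fold change of -2.26 (SE 0.027, adjusted p = 6.56e-19, quasi-likelihood test of edgeR, adjusted by Benjamini-Hochberg), so the targeted gene followed the labels without reaching 0. Of 12 fibroblast markers 11 passed the filter on low counts, with Col1a1 and Vim at 112305 normalized counts or more in every library, and Lum was below 4 in each. Their levels differed between the groups in both directions. With an adjusted p below 0.05 and a change of over 1 on the log2 scale, Dcn (log2 fold change 4.99), Thy1 (2.07), Pdgfrb (1.88) and Pdgfra (1.16) were higher and Col1a1 (-1.38) and Col3a1 (-1.01) lower in Top2β-null cells (edgeR). The summed level of 6 leukocyte markers was 9.08 and 11.6 in wt and 32.1 and 35.7 in Top2β-null libraries, with Adgre1 and Tyrobp at 0 throughout. For 4 endothelial markers the sums were 165 and 162 against 252 and 258, with Kdr higher (log2 fold change 1.54), Tek lower (-2.54) and Pecam1 and Cdh5 not past the test in edgeR. For 5 epithelial markers they were 69.6 and 71.5 against 19.7 and 20.8. The 6 pluripotent or germ cell markers summed to 20.2 and 18.4 in wt and to 54.9 and 65.4 in Top2β-null libraries, where Nanog went up, with 3.03 and 0.97 in wt against 43.5 and 42.6, and Dazl stayed at 0. The part of these differences in the ERVK values was not tested.

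Top2β-null MEF cells held slightly more ERVK RNA, and 3 internal parts held 33.2% of the summed positive differences. All ERVK families together took 1.012% and 1.004% of all counts in wt against 1.15% and 1.099% in Top2β-null libraries (1.01% ± 0.0055 against 1.12% ± 0.036, SD, n = 2). Repeat families of all classes moved the same way, with 19.48% and 19.33% in wt against 21.39% and 20.32% in Top2β-null libraries. The summed normalized counts were 1454788 and 1451221 in wt and 1585326 and 1503829 in Top2β-null libraries, a log2 ratio of 0.088, which was 0.14 without Top2β-null replicate 2 and 0.16 with scaling to the total count. Both Top2β-null libraries were above both wt libraries, but the first exceeded the wt mean by 9.11% and the second by 3.5%. Of the 279 ERVK families tested, 237 had a higher value in the first than in the second Top2β-null library, against 155 that were higher in the first than in the second wt library. The SD of the log2 sum between replicates was 0.038.

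Of the 283 families, 279 reached the required 10 counts in 2 or more libraries, and no family did so through 1 group alone. RLTR43A and RLTR43B had no count in any library, where 3 counts would be 2.00e-06% to 2.25e-06% of a library, a limit that covers counting error only. RLTR46, with 3.86 to 14.9 normalized counts, and RLTR9A4, with 3.96 to 16.1, were too low to test. A family was called when its adjusted p was below 0.05, its absolute log2 fold change above 1 and its mean normalized count above 100, and 265 of the tested families were above this mean.

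By these cut-offs, 8 ERVK families were higher in Top2β-null MEF cells and 0 were lower (edgeR's quasi-likelihood test). Among all 26566 features tested, 5.27% were called higher and 4.97% lower, so that 8 of 279 is not an excess over the background of genes and repeats. With DESeq2 0 ERVK families were called lower as well. At an unadjusted p below 0.05 in edgeR, 38 ERVK families were lower, none of them with a log2 fold change below -1 and a mean above 100. Of the 14 repeat families of any class that were called higher, these 8 were ERVK families, beside 2 of 136 ERV1 families, 1 of 108 ERVL families and 1 of 131 L1 families.

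On the adjusted p alone, 102 of the 279 ERVK families were higher (36.6%), 35 were lower (12.5%) and 142 did not pass (edgeR's quasi-likelihood test). Among all features 32.5% were higher and 32.5% lower, and among all 1481 repeat families tested 27.6% were higher and 12.5% lower. The share of lower ERVK families was near that of repeats as a whole, while the distance between the share of higher families and that of all features depended on the setting. Both Top2β-null libraries were above both wt libraries in 121 ERVK families and below both in 53, where 40.3% of all features had this order and 40.2% the reverse. The median log2 fold change was 0.051 over ERVK families, 0.041 over all repeat families and 0.0027 over all features in the fit of all libraries. It was 0.019 over ERV1, 0.0069 over ERVL, 0.026 over ERVL-MaLR and 0.062 over L1 families.

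The split between higher and lower ERVK families moved with the scaling. With libraries scaled to their total count, 155 families were higher and 19 lower at an adjusted p below 0.05 in edgeR (55.6% and 6.81%, against 37.7% and 28.7% of all features). With repeat families fitted alone 66 were higher and 45 lower (23.7% and 16.1%, against 17% and 15.3% of all repeat families in that fit). Without the second Top2β-null library 144 families were higher and 18 lower (51.8% and 6.47% of 278 tested, against 30.9% and 31.3% of all features), and without the first wt library 80 were higher and 37 lower (28.7% and 13.3%, against 30.3% and 30.1%). The median log2 fold change of ERVK families was 0.12, 0.016, 0.11 and 0.043 under these settings in turn. The families called higher were the same 8 under each of these 4 settings.

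Most changes were small. Of the tested families, 123 had an absolute log2 fold change under 0.1, 127 lay between 0.1 and 0.5, 18 between 0.5 and 1, and 11 above 1. The median absolute log2 difference between group means, 0.12, compares with 0.047 between the 2 wt libraries and 0.089 between the 2 Top2β-null libraries, taken over the 265 families above the mean cut-off.

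**Figure D1:**
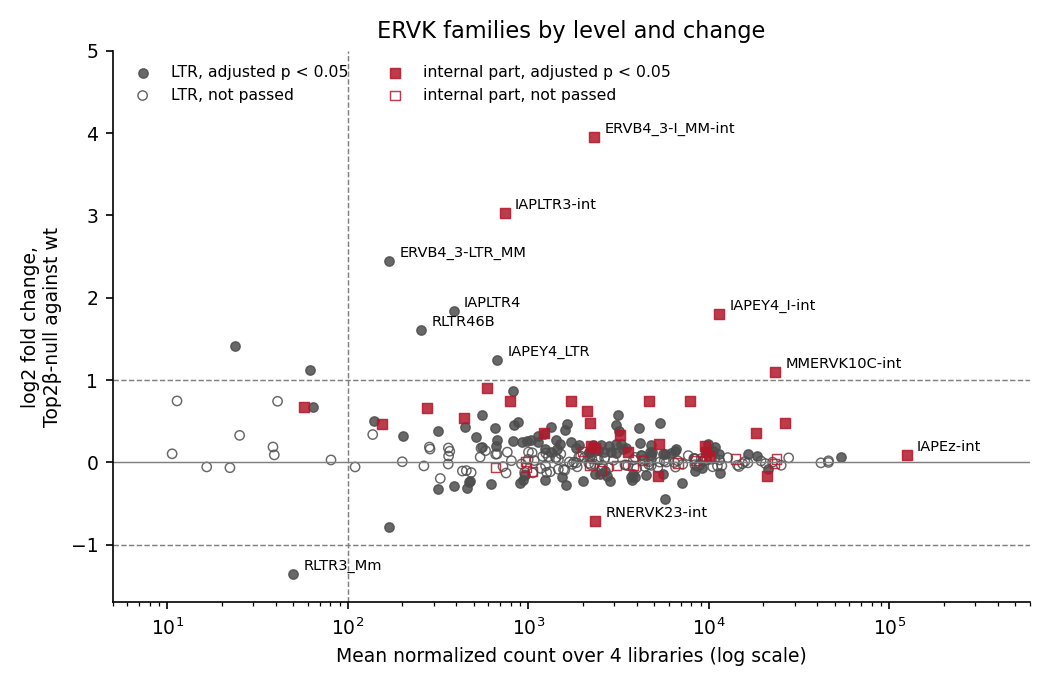
Each point is 1 of the 279 tested ERVK families, with its mean normalized count over 4 libraries on a log axis and its log2 fold change (Top2β-null against wt). Red squares are internal parts, grey circles are LTRs, filled symbols passed an adjusted p of 0.05 in edgeR, and dashed lines mark the cut-offs of 100 counts and an absolute log2 fold change of 1. The 8 families called higher stand in the upper right field and the lower right field is empty.

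The family with the largest change was ERVB4_3-I_MM-int, the internal part of an ERVB element. Its normalized counts were 283 and 277 in wt against 4473 and 4191 in Top2β-null libraries. All ERVB families other than this were within a log2 fold change of -0.23 to 2.45, while ERVB4_3-I_MM-int rose by 3.95 (SE 0.058, adjusted p = 6.99e-18, edgeR's quasi-likelihood test). Its LTR, ERVB4_3-LTR_MM, had 49.5 and 55.1 normalized counts in wt and 272 and 298 in Top2β-null libraries, a log2 fold change of 2.45 (SE 0.15, adjusted p = 5.94e-10, edgeR). The mean of ERVB4_3-LTR_MM over the 4 libraries was 169, close to the cut-off for a call, and it is the family that was no longer tested when 100 counts were required in every library.

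Among the IAP families, whose LTRs drive full-length transcripts of an intracellular retrotransposon, 4 of 25 were called higher, where 5.27% of all features were. IAPLTR3-int had 170 and 154 normalized counts in wt and 1367 and 1264 in Top2β-null libraries, a log2 fold change of 3.03 (SE 0.081, adjusted p = 1.09e-14, edgeR). The LTR of the same name, IAPLTR3, was at 173 and 186 in wt and at 225 and 225 in Top2β-null libraries, and its log2 fold change of 0.32 passed the test (adjusted p = 0.026, edgeR) but not in DESeq2 (adjusted p = 0.13). In edgeR IAPLTR3 also failed the test with repeat families fitted alone (adjusted p = 0.087), without wt replicate 1 (0.26, adjusted p = 0.18), without wt replicate 2 (adjusted p = 0.052) and without Top2β-null replicate 2 (adjusted p = 0.051). In wt cells the internal part and the LTR of IAPLTR3 were thus at similar counts, with ratios of 0.98 and 0.82, and in Top2β-null cells the internal part had 6.08 and 5.62 counts for each count on the LTR.

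IAPEY4 belongs to the IAPE elements, relatives of IAP that carry an env gene. Its internal part IAPEY4_I-int rose from 5081 and 5021 to 17712 and 17607 normalized counts (log2 fold change 1.81, SE 0.026, adjusted p = 4.72e-18, edgeR). The LTR IAPEY4_LTR rose with it, from 369 and 428 to 936 and 950 (log2 fold change 1.24, SE 0.074, adjusted p = 3.50e-10, edgeR). The other IAPEY names moved less, with log2 fold changes of 0.18 for IAPEy-int, 0.13 for IAPEY3-int and 0.68 for IAPEY5_I-int, the last at only 42.5 to 71.3 normalized counts. IAPEY3C_LTR fell by 0.32 on the log2 scale (adjusted p = 0.0046, edgeR) and is the IAP family that was lower.

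IAPE elements are known to have copies on the mouse Y chromosome, so the Y-linked genes were read beside them. Ddx3y, Uty, Eif2s3y and Kdm5d summed to 13383 and 13245 normalized counts in wt against 26511 and 26502 in Top2β-null libraries. All 4 genes were higher in Top2β-null cells, with log2 fold changes of 1.08, 1.07, 0.65 and 1.15 (adjusted p = 2.83e-11 or below, edgeR). The part of this difference in the IAPEY4 values was not tested, as the table does not separate copies by position.

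IAPLTR4 is an LTR name and went from 173 and 165 to 609 and 595 normalized counts (log2 fold change 1.83, SE 0.089, adjusted p = 2.42e-11, edgeR). Its partner IAPLTR4_I was low, at 39.4 and 59.9 in wt and 80.8 and 78.2 in Top2β-null libraries, and its log2 fold change of 0.67 passed in edgeR (adjusted p = 0.021) but not in DESeq2 (adjusted p = 0.084) or with repeat families fitted alone (adjusted p = 0.099). Without wt replicate 1, the log2 fold change of IAPLTR4_I was 0.39 with an adjusted p of 0.22 in edgeR.

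The 2 called families with other names were RLTR46B and MMERVK10C-int. RLTR46B, an LTR, had 142 and 110 normalized counts in wt and 394 and 377 in Top2β-null libraries (log2 fold change 1.61, SE 0.12, adjusted p = 8.54e-09, edgeR). Its relatives RLTR46A2 and RLTR46A had log2 fold changes of 0.74 and 0.031, neither of which passed the test. MMERVK10C-int, the internal part of a young ERVK element that is known as a target of TRIM28, was the most abundant of the called families, with 14656 and 15129 normalized counts in wt and 32631 and 31269 in Top2β-null libraries (log2 fold change 1.10, SE 0.028, adjusted p = 6.65e-15, edgeR). RLTR10C, described as an LTR of MMERVK10C, went from 10080 and 10058 to 11674 and 11354, a log2 fold change of 0.19 (adjusted p = 5.65e-06, edgeR). In all 8 called families the groups did not overlap, which the cut-offs for a call made all but certain. Among all features, 40.3% had both Top2β-null libraries above both wt libraries.

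**Figure D2:**
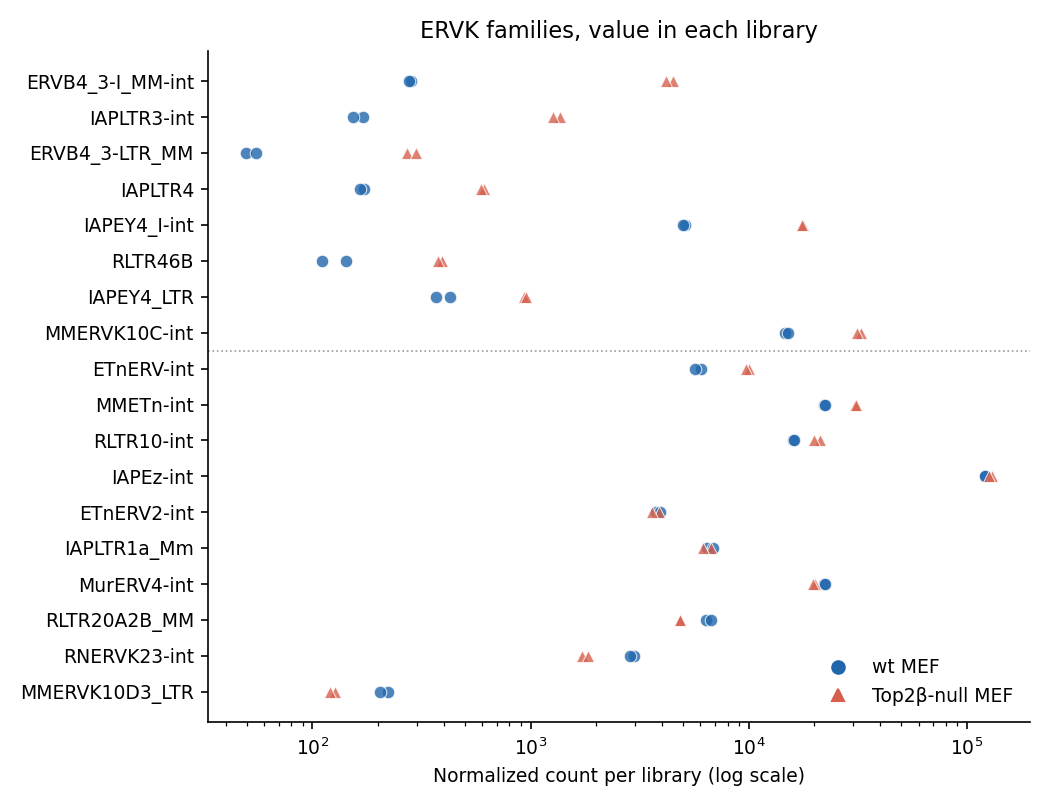
Normalized counts on a log axis in each of the 2 wt (blue circles) and 2 Top2β-null (red triangles) libraries for 18 ERVK families. The 8 families above the dotted line were called higher from these same values. In ETnERV2-int and IAPLTR1a_Mm the libraries of the 2 genotypes overlap.

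The most abundant families changed little, apart from MMERVK10C-int and MMETn-int. IAPEz-int, the internal part of the main IAP family, was the most abundant ERVK family and held 8.26% to 8.38% of the ERVK counts in every library. It had 120561 and 121195 normalized counts in wt and 130911 and 126027 in Top2β-null libraries, a log2 fold change of 0.088 (SE 0.029, adjusted p = 0.015, edgeR). The adjusted p was no longer below 0.05 without wt replicate 1 (log2 fold change 0.069, adjusted p = 0.096, edgeR) and without wt replicate 2 (0.077, adjusted p = 0.062, edgeR). The 10 most abundant families, 4 internal parts and 6 LTRs, held 28.9% to 29.8% of ERVK counts. Their log2 fold changes ran from -0.034 for RMER4A to 1.10 for MMERVK10C-int, and those of the LTRs RMER19B, RMER4B and RLTR17B_Mm, at 0.00041, -0.0048 and 0.020, did not pass the test. RLTR17B_Mm passed it in edgeR with scaling to the total count (0.090, adjusted p = 0.016). Without Top2β-null replicate 2 the log2 fold changes of RLTR17B_Mm and RMER19B were 0.074 and 0.077.

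The abundant IAP LTRs were near their wt level. IAPLTR1_Mm had 10188 and 10051 normalized counts in wt and 11402 and 10813 in Top2β-null libraries (log2 fold change 0.13, adjusted p = 6.19e-04, edgeR). IAPLTR2_Mm was at 6052 and 6293 against 6938 and 6605, also with 0.13 (adjusted p = 0.0015, edgeR), but 0.098 with repeat families fitted alone (adjusted p = 0.060). IAPLTR1a_Mm, at 6452 and 6883 against 6685 and 6145, overlapped between the groups, with a log2 fold change of -0.056 (adjusted p = 0.22, edgeR). Its log2 fold change was -0.12 without wt replicate 1, -0.079 without Top2β-null replicate 1 and 0.022 without Top2β-null replicate 2. With scaling to the total count it was 0.014 and did not pass the test.

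Internal parts and LTRs were counted apart. Of 45 internal parts, all tested, 27 were higher (60.0%) and 3 lower (6.67%), with a median log2 fold change of 0.18, whereas of 234 LTRs tested 75 were higher (32.1%) and 32 lower (13.7%), with a median of 0.043 (adjusted p below 0.05, edgeR's quasi-likelihood test). Beside the 32.5% of all features that were higher and the 32.5% that were lower, the internal parts had more higher and fewer lower families, in a comparison that was not tested. Summed over families, internal parts had 368690 and 367087 normalized counts in wt and 444308 and 427245 in Top2β-null libraries, a log2 ratio of 0.24 with a replicate SD of 0.028. LTRs summed to 1086098 and 1084133 in wt and to 1141018 and 1076584 in Top2β-null libraries, so that the second Top2β-null library was below both wt libraries, and their log2 ratio of 0.031 was smaller than the replicate SD of 0.042. The LTR ratio was 0.091 without Top2β-null replicate 2, 0.017 without wt replicate 1, 0.015 without wt replicate 2 and 0.10 with scaling to the total count. The shares of internal parts and LTRs were not tested against each other either, since related families may share reads.

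All 9 IAP internal parts were higher, where 32.5% of all features were, with a median log2 fold change of 0.63, and 8 of them were by DESeq2, 6 when repeat families were fitted alone, and 7 or 8 with each library left out. Of the 16 IAP LTRs 7 were higher and 1 lower, with a median of 0.12 (edgeR, adjusted p below 0.05). Beside the families given above, IAP1-MM_I-int went from 638 and 550 to 1040 and 955 normalized counts (log2 fold change 0.75), IAP-d-int from 1733 and 1613 to 2683 and 2483 (0.63), and IAPA_MM-int from 326 and 392 to 550 and 495 (0.54). The IAP sum had a log2 ratio of 0.21, and of 0.46 when IAPEz-int was left out.

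ERVB families, a beta-retrovirus-like group, were higher in 6 of 8 internal parts and in 4 of 13 LTRs, and lower in 2 LTRs, where 32.5% of all features were higher and 32.5% lower, and the median over all 21 was a log2 fold change of 0.21. All 9 families named ERVB4 had a positive log2 fold change, of at least 0.13, and 6 of them passed the test (edgeR). ERVB4_1-I_MM-int, at 2046 and 2086 against 2404 and 2361 normalized counts, and ERVB4_1B-LTR_MM, at 1447 and 1314 against 2026 and 1787, had log2 fold changes of 0.21 and 0.47, of which the former was 0.17 and did not pass with repeat families fitted alone (adjusted p = 0.053, edgeR). The ERVB7 LTRs went in different directions, with ERVB7_1-LTR_MM higher by 0.39 and ERVB7_2-LTR_MM and ERVB7_3-LTR_MM lower, at -0.22 and -0.23 (adjusted p = 0.013 or below, edgeR). The ERVB sum went from 20084 and 19638 to 28268 and 26826 normalized counts, a log2 ratio of 0.47.

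The ETn and MusD elements are related, and most ETn copies depend on the proteins of MusD to move. ETnERV-int had 6052 and 5655 normalized counts in wt and 10032 and 9678 in Top2β-null libraries (log2 fold change 0.75, adjusted p = 4.91e-12, edgeR). ETnERV3-int rose from 2956 and 2779 to 3712 and 3503 (0.33, adjusted p = 4.65e-06, edgeR). ETnERV2-int overlapped between the groups, at 3776 and 3930 against 3885 and 3609 (-0.041, adjusted p = 0.40, edgeR).

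MMETn-int, whose name has another start, went from 22080 and 22295 to 30788 and 31022 normalized counts, a log2 fold change of 0.48 (adjusted p = 4.55e-11, edgeR). RLTRETN_Mm, the LTR of these elements, was at 4498 and 4494 in wt and at 4481 and 4205 in Top2β-null libraries (-0.050, adjusted p = 0.23, edgeR). The ETn sum had a log2 ratio of 0.45, and of 0.42 with MMETn-int and RLTRETN_Mm included.

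Of the 5 MMERVK families, MMERVK10C-int and MMERVK9E_I-int were higher and MMERVK10D3_LTR was lower, where 32.5% of all features were higher and 32.5% lower. MMERVK9E_I-int went from 9183 and 9256 to 10323 and 9860 normalized counts, a log2 fold change of 0.13 (adjusted p = 6.19e-04, edgeR). MMERVK10D3_LTR, at 221 and 205 against 126 and 121, had the most negative log2 fold change among ERVK families above the mean cut-off, -0.78 (SE 0.13, adjusted p = 8.35e-05, edgeR). Its internal part MMERVK10D3_I-int had a log2 fold change of 0.011. MMERVK9C_I-int, with 0.025, did not pass the test either.

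The RLTR names form the largest group and are mostly LTRs. Of 142 tested, 53 were higher and 23 lower (37.3% and 16.2%, against 32.5% and 32.5% of all features), with a median log2 fold change of 0.039. Their sum had a log2 ratio of 0.041 beside a replicate SD of 0.039, and this ratio was 0.099 without Top2β-null replicate 2, 0.024 without wt replicate 2 and 0.11 with scaling to the total count. The 2 most abundant RLTR internal parts were RLTR19-int, at 23499 and 23459 against 24316 and 24028 normalized counts (0.042, adjusted p = 0.14, edgeR), and RLTR10-int, at 15990 and 16071 against 21263 and 19863 (0.36, adjusted p = 2.36e-08, edgeR). RLTR19-int passed the edgeR test with scaling to the total count (0.11, adjusted p = 8.88e-04). It also passed with TMM factors from genes (0.061, adjusted p = 0.040) and without the filter (0.059, adjusted p = 0.047). Its log2 fold change was 0.072 without Top2β-null replicate 1 and 0.069 without Top2β-null replicate 2. RLTR45-int rose from 3543 and 3441 to 6209 and 5492, a log2 fold change of 0.74 (edgeR). The abundant LTR RLTR20A4 had a log2 fold change of 0.0035 and overlapped between the groups, but passed the edgeR test with scaling to the total count (0.073, adjusted p = 0.030) and without Top2β-null replicate 2 (0.060, adjusted p = 0.041, but 0.064 with the prior degrees of freedom of the fit to all libraries).

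Within the RLTR names, the subfamilies of some numbers went in both directions and those of others in 1 direction. Of 23 RLTR13 families 8 were higher and 2 lower, of 16 RLTR20 families 6 were higher and 4 lower, and of 10 RLTR10 families 6 were higher and 1 lower (edgeR, adjusted p below 0.05), where 32.5% of all features were higher and 32.5% lower. Of 10 RLTR12 families 2 were higher and 3 lower. All 3 RLTR34, both RLTR22 and both RLTR45 families were higher. Of 3 RLTR18 families 2 were lower and 0 higher, and of 3 RLTR16 families 1 was lower and 0 higher. RLTR20A2B_MM, at 6377 and 6748 against 4839 and 4822 normalized counts, had the lowest log2 fold change among RLTR families above the mean cut-off, -0.44 (adjusted p = 3.75e-09, edgeR).

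Among names with another start, 19 of 83 were higher and 8 lower (22.9% and 9.64%, against 32.5% and 32.5% of all features), with a median log2 fold change of 0.030. RNERVK23-int, an internal part, fell from 2968 and 2850 to 1720 and 1841 normalized counts (-0.71, SE 0.047, adjusted p = 1.20e-09, edgeR). MurERV4-int, at 22049 and 22413 against 20117 and 19711, and MurERV4_19-int were the other two internal parts that were lower, with log2 fold changes of -0.16 and -0.17. MMTV-int, the internal part related to mouse mammary tumour virus, rose from 386 and 437 to 774 and 773 (0.91, adjusted p = 1.84e-08, edgeR). MYSERV6-int and RMER19B, among the most abundant of this group, had values that overlapped between the genotypes, whereas RMER6A, at 52746 and 52879 against 56501 and 54374, had a log2 fold change of 0.070 (adjusted p = 0.035, edgeR). RMER6A no longer passed with repeat families fitted alone (0.035, adjusted p = 0.13), without wt replicate 1 (0.053, adjusted p = 0.20) or without wt replicate 2 (0.057, adjusted p = 0.17).

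**Figure D3:**
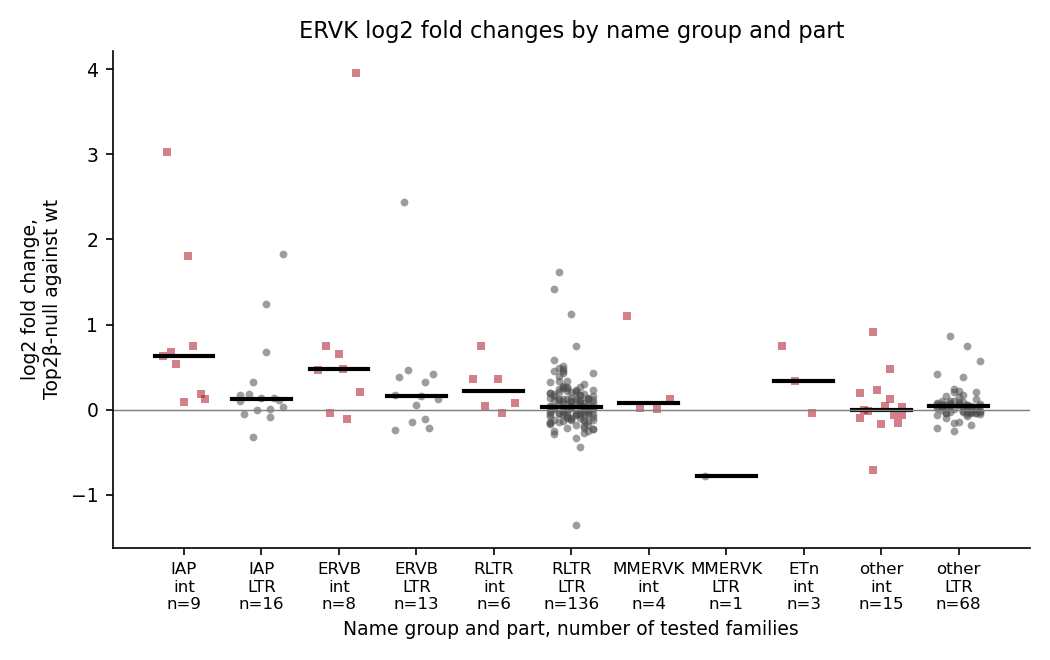
The log2 fold change (Top2β-null against wt) of every tested ERVK family, by name group and part, with 1 point per family and a bar at the median. The medians of IAP and ERVB internal parts, 0.63 and 0.48, are above those of their LTRs, 0.12 and 0.16. RLTR, ETn and MMERVK internal parts have medians of 0.22, 0.33 and 0.078. For names with another start than these 5 the internal parts have a median of -0.0047.

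Internal parts and LTRs that share a base name allowed a comparison within an element. There were 20 such pairs, all tested, and the internal part had the higher log2 fold change in 17 of them. IAPLTR4_I, whose name lacks -int, was not among these pairs, and it went the other way. Its log2 fold change of 0.67 was below the 1.83 of IAPLTR4, and the ratio of its counts to those of IAPLTR4 was 0.23 and 0.36 in wt against 0.13 and 0.13 in Top2β-null libraries. With this pair, added after its values were seen, the internal part was higher in 17 of 21. The number of counts on the internal part for each count on the LTR does not depend on scaling, and both Top2β-null libraries were above both wt libraries in 15 pairs, below both in 2 and overlapped in 3. How often ratios of other features have this order was not computed. For ERVB4_3 the ratio was 5.71 and 5.04 in wt and 16.4 and 14.1 in Top2β-null libraries. For IAPEY4 it was 13.8 and 11.7 against 18.9 and 18.5, and for IAP1 1.02 and 0.85 against 1.46 and 1.46. The pairs in which the ratio was lower in Top2β-null cells were ERVB3_1, at 6.70 and 6.46 against 5.33 and 6.06, and RMER17A, at 0.19 and 0.18 against 0.16 and 0.17. Counts on an LTR name come from solo LTRs as well as from complete elements, which the table does not separate.

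**Figure D4:**
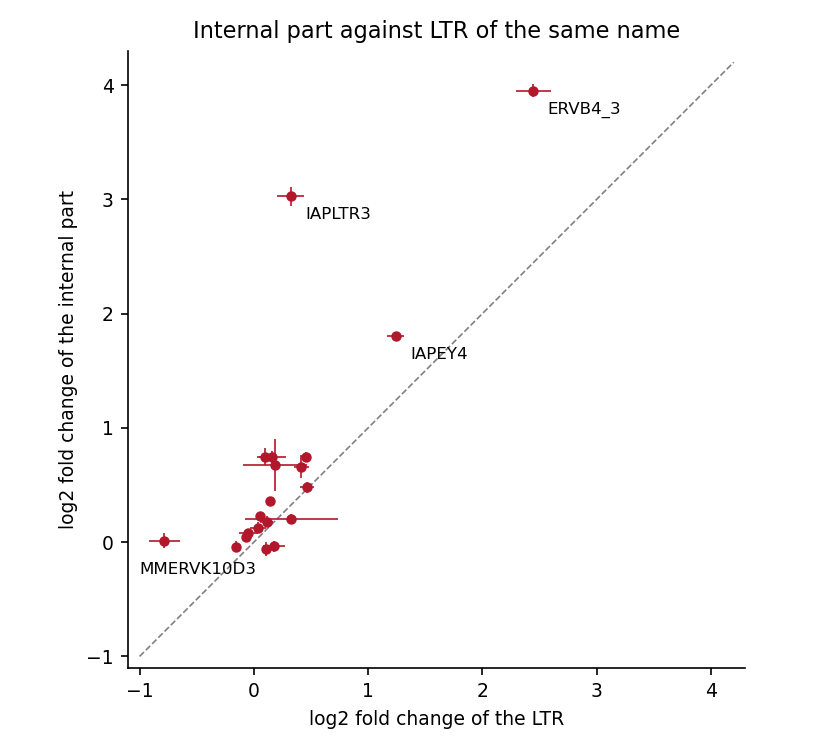
The log2 fold change of the internal part (vertical) against that of the LTR with the same base name (horizontal) for 20 pairs, with error bars of 1 SE from edgeR and a dashed line of equal change. Of the 20 pairs 17 lie above the line, and IAPLTR3 lies far above it, at 3.03 for the internal part and 0.32 for the LTR.

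In counts rather than folds, the difference was spread over many families, with internal parts in the lead. The difference of the ERVK sums between the group means was 91574 normalized counts, made of 180 families with a positive difference, which sum to 115775, and 101 with a negative difference, which sum to -24201. MMERVK10C-int (17057), IAPEY4_I-int (12609) and MMETn-int (8718) together held 33.2% of the positive sum. IAPEz-int followed with 7591, a small fold change on a high level. Internal parts contributed 67888 and LTRs 23686 to the difference. Without the 8 called families, the log2 ratio of the ERVK sum was 0.054, beside a replicate SD of 0.039.

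**Figure D5:**
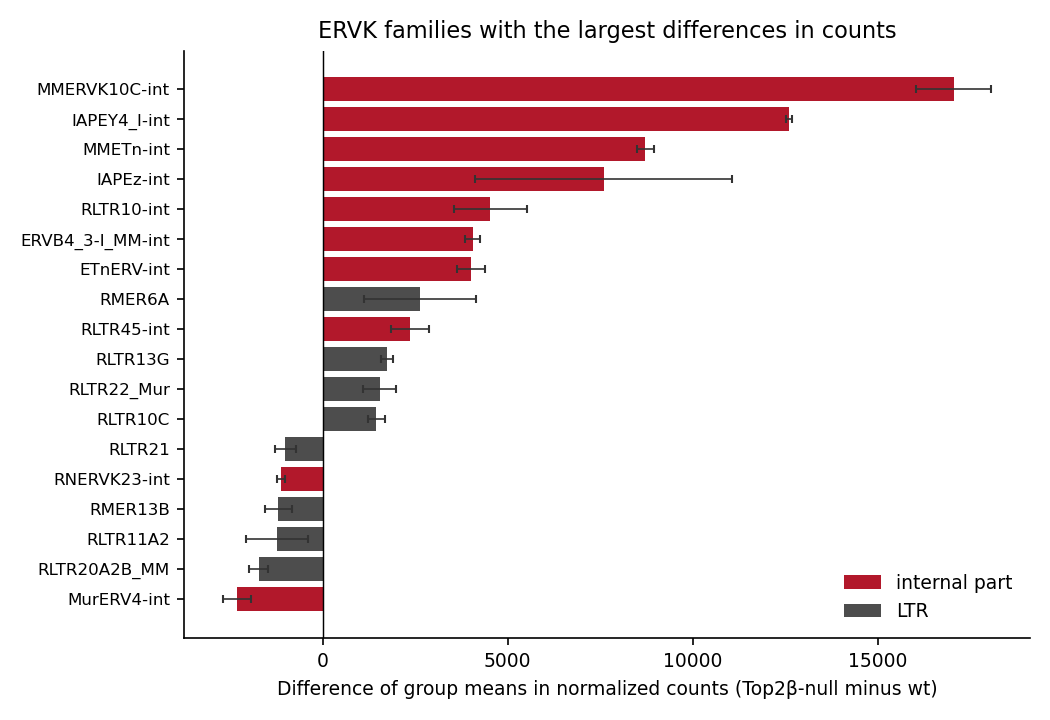
Difference of the group means in normalized counts (Top2β-null minus wt), on a linear axis from 0. Shown are the 12 ERVK families with the largest positive and the 6 with the most negative differences. Internal parts are in red and LTRs in grey. Error bars are the root of the summed squared SDs (n = 2 per group). They give the spread of a difference between single libraries and not of the plotted difference of means. MMERVK10C-int, IAPEY4_I-int and MMETn-int have the longest bars, and MurERV4-int has the most negative difference, -2317.

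Some families with low counts had large fold changes that the mean cut-off keeps from being called. RLTR50A was at 13.1 and 12.6 normalized counts in wt and at 31.1 and 37.6 in Top2β-null libraries (log2 fold change 1.41), RLTR19D at 46.4 and 30.9 against 96.3 and 72.3 (1.12), and RLTR3_Mm at 55.5 and 86.9 against 31.1 and 24.8 (-1.35). Each passed an adjusted p of 0.05 in edgeR.

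Genes listed for the TRIM28 and SETDB1 pathway changed in both directions and by small amounts. Of 26 genes of the TRIM28 and SETDB1 pathway, all tested, 13 were higher and 10 lower at an adjusted p below 0.05 in edgeR, with a median log2 fold change of 0.056, and none was called. Among all features 32.5% were higher and 32.5% lower by this rule, and 5.27% were called higher and 4.97% called lower. Setdb1, the H3K9 methyltransferase, went up from 9416 and 9517 to 13894 and 13804 normalized counts (0.55), and the corepressor Trim28 from 29701 and 30931 to 36201 and 36485 (0.26). Smarcad1, a chromatin remodeller, rose by 0.59, and Resf1, a SETDB1 partner, by 0.43. Cbx5, which encodes HP1α, fell from 118720 and 119577 to 76708 and 77668 (-0.63), and Chaf1a, a histone chaperone subunit, had -0.38. Zfp809, a KRAB zinc finger gene on the list but not one known here to act on ERVK copies, had -0.21 (adjusted p = 3.29e-04, edgeR).

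Of 8 genes of DNA methylation, 5 were higher and 2 lower (edgeR, adjusted p below 0.05), where 32.5% of all features were higher and 32.5% lower, with a median log2 fold change of 0.24. The maintenance methyltransferase gene Dnmt1 had 38914 and 39548 normalized counts in wt and 38112 and 38470 in Top2β-null libraries, and did not pass the test (-0.035, adjusted p = 0.24, edgeR). Uhrf1, its partner, was lower (-0.59). Dnmt3a was higher by 0.98, and Tet1, a gene for an enzyme that oxidizes methylcytosine, rose from 19.2 and 24.1 to 137 and 120 normalized counts (2.55), a mean below the cut-off for a call.

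Of 10 genes that restrict retroelements, 5 were higher and 3 lower (edgeR, adjusted p below 0.05), with a median log2 fold change of 0.42. Of all features 32.5% were higher and 32.5% lower by this rule, and 5.27% were called higher and 4.97% called lower. Called higher were Bst2, which tethers budding particles and went from 441 and 473 to 3430 and 3509 normalized counts, Mov10, an RNA helicase that went from 1281 and 1358 to 5322 and 5230, and Apobec3, a cytidine deaminase. Apobec3 was at 11.1 and 3.86 in wt and at 2680 and 2762 in Top2β-null libraries, so its fitted log2 fold change of 8.50 rests on few wt counts. Rnaseh2a, a subunit of RNase H2, was called lower, from 10284 and 10323 to 4888 and 5015. Its log2 fold change of -1.06 was -0.99 with scaling to the total count and -0.9997 without Top2β-null replicate 1, so it was not called under either. Whether these genes bear on the ERVK values was not tested.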

How the data were processed

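Total RNA depleted of ribosomal RNA was measured in 2 wt and 2 Top2β-null MEF libraries, grouped by the sample labels. The authors used Trim Galore for trimming, STAR for alignment to mm10 (GRCm38) and TEtranscripts for counting genes and repeat families, and deposited the raw, whole-number counts with 1 column per library. A count can be shared among related families if reads with many alignments were divided, and the mode used is not given in the sources used here. Of 54842 gene IDs, 54409 matched a symbol of GENCODE M21.

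In R 4.3.3, edgeR 4.0.16 (with limma 3.58.1) fitted genotype as the single term of a quasi-likelihood model to the 26566 features (25085 genes and 1481 repeat families) that reached 10 counts in 2 or more libraries. TMM factors were taken over genes and repeats together, and p-values were adjusted by Benjamini-Hochberg over all features. The SE was derived from the log2 fold change and the F statistic. With 2 libraries a group an exact two-sided permutation test cannot go below p = 0.33. The tests were tested on simulated data. DESeq2 1.42.0, other scalings and filters, a replicate block and leaving out each library were alternatives. With a library left out, edgeR's prior degrees of freedom could not be estimated stably, so those adjusted p-values are too small. The same fits with the prior degrees of freedom of all libraries were added after seeing the data.

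Members, gene lists and rules were chosen with earlier results of these data known. Named families were those called, the 2 with most counts per name group and part, the 3 with the largest and smallest log2 fold change above a mean of 100, often-studied families, and partners of called families by base name. The rule for pairing names was extended to endings such as _I and _LTR, and the Y-linked genes, IAPLTR4_I as an internal part, the pooled ETn names and the families named outside the rule (among them MurERV4-int, MMTV-int, RLTR45-int and the low-count families) were chosen after their values were seen. No sequence of an ERVK family was used here.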

Additional observations from a re-analysis of the deposited data

How the results depend on the processing

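The same 8 families were called higher under every alternative except the requirement of 100 counts in every library, which left 7 of them, since ERVB4_3-LTR_MM was then not tested, and 0 were called lower throughout. With scaling to the total count, 155 ERVK families were higher and 19 lower (122 and 16 LTRs), and the log2 ratios of the sums became 0.16 for ERVK, 0.31 for internal parts, 0.10 for LTRs, 0.28 for IAP, 0.54 for ERVB, 0.11 for RLTR, 0.75 for MMERVK, 0.52 for ETn and 0.11 for other names. With repeat families fitted alone 66 families were higher, 45 of them LTRs. With each library left out, where the lone library of a group is assumed to vary like the others, 80 to 144 families were higher and 18 to 40 lower (LTRs 55 to 113 and 15 to 37, internal parts 23 to 31 and 3 to 4), and the sums had log2 ratios of 0.071 to 0.14 for ERVK, 0.23 to 0.29 for internal parts, 0.015 to 0.091 for LTRs, 0.19 to 0.26 for IAP, 0.44 to 0.53 for ERVB, 0.024 to 0.099 for RLTR, 0.66 to 0.73 for MMERVK, 0.41 to 0.51 for ETn and 0.022 to 0.098 for other names. In these fits to 3 libraries edgeR's estimate of the prior degrees of freedom, 12.9 with all libraries, rose to 2370 and 230 without wt replicate 1 and 2 and was infinite without either Top2β-null library. Their adjusted p-values are therefore too small and do not show that a call is stable. With the value of 12.9 kept, an alternative chosen after seeing the data, 73 to 128 families were higher and 15 to 35 lower (128 and 15 without Top2β-null replicate 2), and 8 were called higher each time. The upper ends for higher families and for all sums, and the ends of 18 and 15, came from leaving out Top2β-null replicate 2. With the replicate block 104 families were higher and 36 lower, and 8 were called; libraries with the same number deviated from their group means with a correlation of 0.021 over 17952 features, so the numbers were not taken to pair them. Directions reversed for 7 named families and 4 genes: with scaling to the total count ETnERV2-int (0.029), IAPLTR1a_Mm (0.014), MYSERV6-int (0.055), RLTRETN_Mm (0.019), Suv39h2 (0.043), Ehmt2 (0.033) and Dnmt1 (0.035); with genes-only TMM factors MYSERV6-int (0.0041), and without the filter 0.0025; with repeats alone RLTR17B_Mm (-0.015), RLTR20A4 (-0.032) and RMER19B (-0.035, and -5.3e-04 with the replicate block). With each library left out the ranges were -0.084 to 0.031 for ETnERV2-int, -0.12 to 0.022 for IAPLTR1a_Mm, -0.051 to 0.059 for MYSERV6-int (0.059 passed the edgeR test at an adjusted p of 0.046 without Top2β-null replicate 2, or 0.091 with 12.9 kept, and -0.050 did with repeats alone, at 0.046), -0.021 to 0.074 for RLTR17B_Mm, -0.019 to 0.060 for RLTR20A4, -0.065 to 0.014 for RLTRETN_Mm, -0.040 to 0.077 for RMER19B, -0.011 to 0.075 for Asf1a, -0.069 to 0.023 for Suv39h2, -0.056 to 0.0078 for Ehmt2 and -0.061 to 0.011 for Dnmt1. The cause of these shifts was not tested.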
